A study of Ulmus minor with 54 samples.

Results

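The 200 most stable leaf transcripts of the field elm, Ulmus minor, are described here, chosen from 237477 assembled sequences counted in 54 RNA-seq libraries. A transcript qualified when its median level over the 18 libraries of untreated leaves lay between 20 and 300 CPM (counts-per-million, scaled between libraries by the trimmed mean of M values, TMM), which 6069 did. Of these, the 200 with the lowest coefficient of variation (CV, the SD over the mean) across 53 libraries were taken. The levels themselves therefore chose the set, and its low spread and small fold changes are given as a description, without support from any test. The table gives sequence identifiers without gene names, so no function is assigned to any transcript, and the leaf origin of the samples could not be checked against marker genes.

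Leaves came from wild-type trees raised in the greenhouse from shoots of a clonal in vitro culture, so that genetic differences between trees are not part of the design. In the priming set of 18 libraries, leaves were untreated (C) or carried simulated eggs (P), made by scratching away a strip of epidermis and applying oviduct secretion of the elm leaf beetle, and were taken 1, 6 and 24 h later. In the triggering set of 36 libraries, taken 1, 6 and 24 h into a larval stage that began 7 days later, leaves were untreated (CC), had simulated eggs alone (PC), 5 newly hatched larvae alone (CT), or simulated eggs and then larvae (PT). Untreated leaves were not scratched, so wound and secretion cannot be told apart in any group that received simulated eggs. There were thus 18 groups of 3 libraries. Whether the libraries of a group stem from different trees is not stated, so p-values rest on a spread between libraries that may be technical in part.

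Feeding and egg deposition by insects are known to change much of the messenger RNA pool of a leaf, through wound and hormone signalling that raises defence genes and often lowers growth and photosynthesis genes. Against this background, transcripts that stay level serve as references, either singly in quantitative PCR or jointly when sequencing libraries are scaled to each other. Sequencing measures shares of a fixed number of reads, so a few very abundant transcripts lower the share left for every other one, and a transcript can look stable only relative to a scaling. In tissue samples, a change in cell makeup and a change in RNA per cell cannot be told apart.

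The 53 libraries held 28916592 to 93878963 reads, and their 10 most abundant sequences took 5.68% to 58.5% of them. Replicate 1 of CT at 24 h, which the selection left out, held 14667334 reads with 80.3% of them in its 10 most abundant sequences. Its values are reported separately below, and the CT group at 24 h has n = 2 everywhere else.

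The CV of the 200 transcripts ran from 6.54% to 10.6%, with a median of 9.80%. The median of the other 5869 transcripts in the level window was 25.2%, with quartiles of 17.05% and 36.97% and a highest value of 218%. From its lowest to its highest library, a chosen transcript differed 1.34-fold to 1.87-fold, with a median of 1.53-fold. All 200 stayed within 2-fold over the 53 libraries and 69 within 1.5-fold, compared with 1184 and 2 of the other 5869. There was no gap at the boundary. The last transcripts inside were scaffold6477 and scaffold11979, both with a CV of 10.56%, and the next outside were scaffold12428 and scaffold2901, both with 10.58%.

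**Figure D1:**
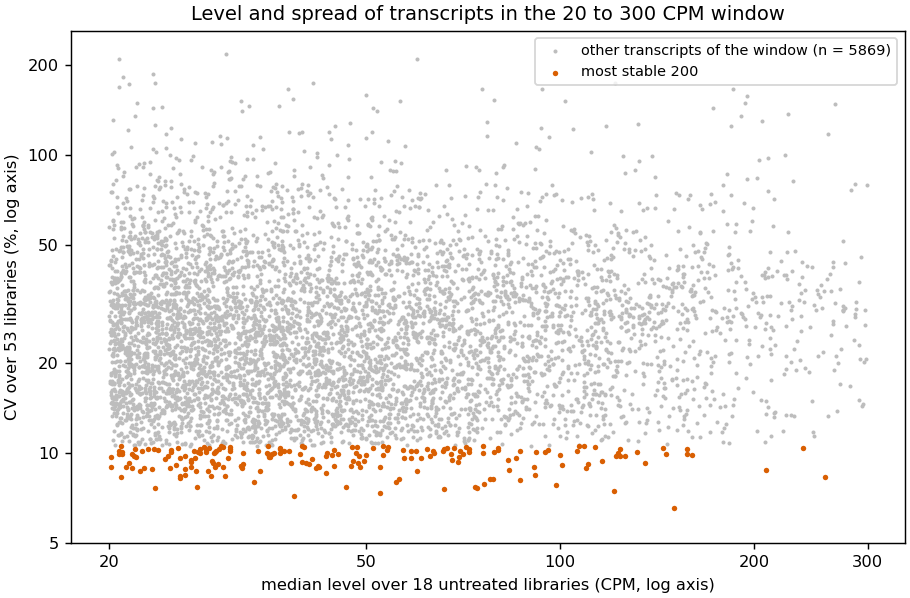
CV over 53 libraries (percent, log axis) against the median level over the 18 untreated libraries (CPM, log axis) for the 6069 transcripts of the level window, with the 200 most stable in orange and the other 5869 in grey. The 200 form the lower edge of one continuous cloud at every level, from a CV of 6.54% upward.

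The stable transcripts were spread over the level window. They made up 94 of 2884 transcripts (3.26%) between 20 and 40 CPM, 67 of 1887 (3.55%) between 40 and 80 CPM, and 35 of 986 (3.55%) between 80 and 160 CPM. Between 160 and 300 CPM they were 4 of 312 (1.28%). Their own median level in untreated leaves was 42.2 CPM, next to 41.9 CPM for the other transcripts of the window. These levels are not divided by transcript length, which the table does not give, so they do not rank the transcripts by number of molecules. The fewest reads that any of the 200 had in any of the 53 libraries was 413. Of the 200, 164 (82.0%) were scaffolds and 36 were single contigs, and scaffolds made up 65.7% of the other transcripts in the window. Among the transcripts ranked 201 to 400 by CV, 84.0% were scaffolds, and among the 200 least stable, 49.5%.

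The transcript with the lowest CV was scaffold719, at 152 CPM on average (CV 6.54%). Its lowest level was 121.7 CPM in replicate 3 of P at 6 h and its highest 171.1 CPM in replicate 2 of PC at 1 h. Its group means ranged from 138 ± 15.2 CPM in P at 6 h to 163 ± 6.86 CPM in PC at 1 h (SD, n = 3 each). All 3 libraries of that PC group lay above all 3 of that P group, but the difference was 1.18-fold. The groups were picked as the extremes, so nothing is read from the lack of overlap.

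scaffold12806, second in rank with a CV of 7.16%, averaged 38.1 CPM and ran from 32.6 CPM in replicate 2 of PT at 1 h to 46.02 CPM in replicate 1 of CC at 24 h. Its group means were 34.7 ± 1.80 CPM in the first of these groups and 43.5 ± 2.20 CPM in the second (SD, n = 3 each), a ratio of 1.253. For this transcript the spread of the group means (CV 6.06%) was larger than the spread within groups (4.75%). The reverse held for scaffold719, with 4.48% between group means and 5.93% within groups. Group means also carry spread from within groups, which was not subtracted.

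Ranks 3 to 6 were held by scaffold14681 (mean 52.1 CPM, CV 7.36%), scaffold484 (120 CPM, 7.46%), scaffold11184 (64.4 CPM, 7.58%) and scaffold5113 (23.3 CPM, 7.62%). scaffold14681 went from 42.7 to 63.6 CPM over the 53 libraries and scaffold484 from 97.8 to 140 CPM, and both were highest in replicate 2 of C at 24 h. scaffold11184 went from 54.7 to 74.7 CPM and scaffold5113 from 20.1 to 27.7 CPM. Their highest and lowest group means differed between 1.154-fold and 1.19-fold.

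**Figure D2:**
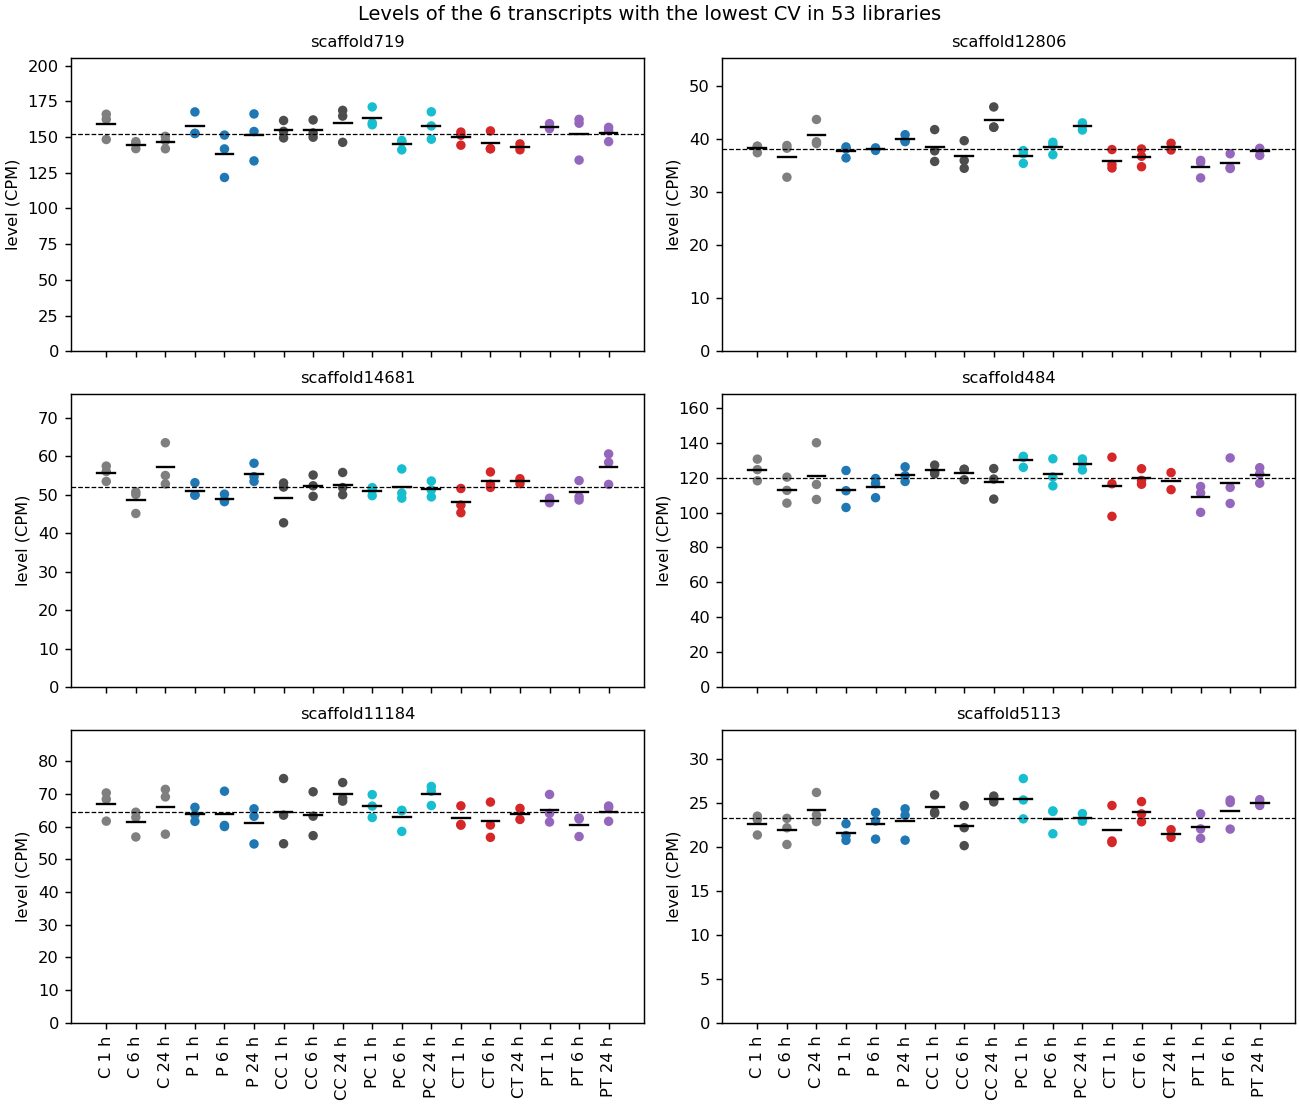
Levels (CPM, TMM-scaled, axis from 0) of the 6 transcripts with the lowest CV in each of 53 libraries, arranged by treatment and time. Points are libraries, bars are group means and the dashed line is the mean of all libraries; scaffold719 stays between 121.7 and 171.1 CPM, and the highest and lowest group means of the 6 differ 1.154-fold to 1.253-fold.

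Transcripts at both ends of the level range had CVs of 8.32% to 10.4%. C615321, the highest of the 200 with a median of 258 CPM in untreated leaves, ran from 192 CPM in replicate 3 of CT at 1 h to 293 CPM in replicate 1 of PC at 24 h (CV 8.32%). In CT at 1 h its 3 libraries stood at 293, 258 and 192 CPM, so 1 group spanned nearly its whole range. scaffold7264, the next highest with a median of 238 CPM, ran from 171 CPM in replicate 1 of C at 6 h to 305 CPM in replicate 1 of PC at 24 h (CV 10.4%). Its groups at 6 h in the priming set were low, at 196 ± 22.4 CPM in C and 197 ± 16.2 CPM in P, and PC at 24 h was high at 283 ± 18.6 CPM (SD, n = 3 each). The libraries of those low groups, at 171 to 214 CPM, did not overlap with the 271 to 305 CPM of PC at 24 h. These groups were named for their low and high means and differ in set and time, so nothing is read from that. At the other end, C614689 (median 20.1 CPM in untreated leaves) ran from 17.2 to 26.2 CPM and C607775 (also 20.1 CPM) from 15.1 to 23.9 CPM.

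Among the 200, the widest ratio of highest to lowest group mean was that of scaffold15692, at 1.47-fold. Its level was 33.9 ± 1.82 CPM in CC at 6 h (SD, n = 3) and 50.005 ± 2.26 CPM in CT at 24 h (SD, n = 2). The 3 libraries of CC at 6 h stood at 32.75, 33.03 and 36.02 CPM and the 2 of CT at 24 h at 51.6 and 48.4 CPM, with no overlap. These groups were picked as the extremes and differ in treatment and time, so nothing is read from that. PT at 24 h, at 48.8 ± 2.23 CPM (SD, n = 3), was close to CT at that time, and PC at 6 h, at 35.8 ± 1.82 CPM (SD, n = 3), was close to CC at 6 h. Over all 200 this ratio was 1.13-fold to 1.47-fold with a median of 1.28-fold. For the other 5869 transcripts of the window the median was 2.12-fold.

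The spread of the 200 was described within groups, between group means and as the part that counting alone would give. Spread within groups also enters the group means and was not subtracted, so these measures are not separate parts. The median CV within groups was 8.396% and the median CV of the 18 group means 6.69%. Counting error, taken as Poisson, had a median CV of 2.27%, or 5.75% of a transcript's variance over libraries (0.768% in the other transcripts of the window). Over the 200, the counting part of the variance ran from 0.851% to 16.01%. In the other 5869 transcripts the order was turned, with a median of 16.9% within groups and 21.1% between group means. The tightest group was PT at 24 h, with a median CV of 4.88% over the 200, and the loosest C at 24 h, with 10.9%.

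The choice was repeated within each set of libraries, so that the spread could be read in libraries that had not chosen the transcripts. The 200 lowest in CV over the 18 priming libraries had a median CV of 8.43% there and of 11.3% in the 35 triggering libraries, where the whole window had 22.4%. Of these 200, 197 were below the window's median in the triggering set and 115 were in its lowest 10%. The 200 chosen over the triggering libraries had a median CV of 9.07% there and 10.7% in the priming libraries, where the window had 23.3%. All 200 were below the window's median in the priming set and 129 were in its lowest 10%. Each choice took its level window from its own set, while the TMM scaling and the whole window used for comparison rested on both. The separation is therefore not complete, and a chosen transcript may lie outside the whole window. The least stable on transfer, named after their values were seen, were C571981, with 25.1% in the triggering set, and scaffold6713, with 22.3% in the priming set. The 2 choices shared 56 transcripts with each other, and 93 of the priming choice and 136 of the triggering choice belonged to the 200 described here.

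Before scaling, the 200 transcripts together took 0.539% to 1.46% of a library's reads, with a median of 1.21%. The lowest share was that of replicate 1 of PT at 6 h and the highest that of replicate 2 of P at 24 h. After TMM scaling their summed level was 9871 to 12530 CPM, with a median of 11330 CPM. Replicate 1 of PT at 6 h was again lowest and replicate 2 of C at 24 h highest. Group means of the summed level lay between 10879 ± 118 CPM in PT at 1 h and 11805 ± 225 CPM in PC at 24 h (SD, n = 3 each). Within PT at 6 h the 3 libraries stood at 9871, 11075 and 11788 CPM, a span wider than the gap between those group means.

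**Figure D3:**
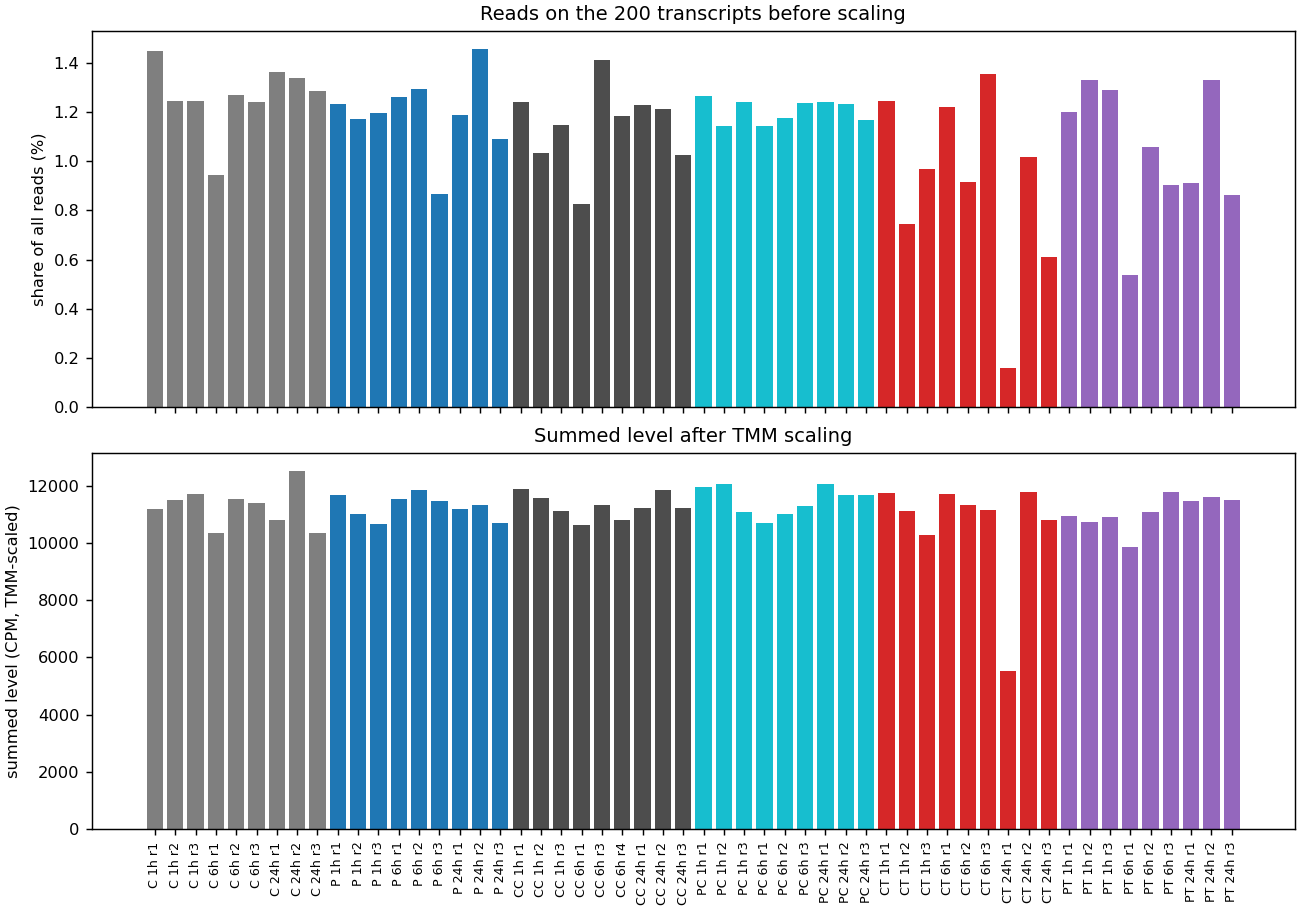
Share of all reads on the 200 transcripts (percent, upper panel) and their summed TMM-scaled level (CPM, lower panel) in each of 54 libraries, coloured by treatment, with r for replicate. The shares of the 53 libraries vary from 0.539% to 1.46% and the scaled sums from 9871 to 12530 CPM, and replicate 1 of CT at 24 h, which the selection did not use, is lowest in both panels.

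A few libraries held many of the extremes. Replicate 1 of PT at 6 h gave the lowest level for 40 of the 200 transcripts, replicate 3 of CT at 1 h for 21 and replicate 1 of C at 6 h for 17, and replicate 2 of C at 24 h gave the highest level for 27. The 10 most abundant sequences took 58.5% of the reads in the first of these libraries, 22.1% in the second, 32.7% in the third and 7.09% in the last. These libraries were picked by their extremes, and others with a high share differed. Replicate 3 of CT at 24 h (51.5%) was lowest for 8 and highest for 1. Replicate 3 of P at 6 h (43.2%) was lowest for 4 and highest for 11, and replicate 3 of PT at 6 h (34.3%) for 0 and 8. The part that this makeup had in the low and high values was not tested. A scaling to the median ratio of the 200 instead of TMM would have moved a library by factors from 0.880 in replicate 1 of PT at 6 h to 1.11 in replicate 2 of C at 24 h. With that scaling, the median CV of the 200 was 8.58%. The same 200 set the scaling, so a low value is built in and nothing is read from it.

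How far the transcripts varied together differed between pairs, and no value for other transcripts of the window is given beside it. Over 53 libraries, which all share the same scaling, the median Pearson correlation of the 19900 pairs was 0.20, and 90% of pairs lay between -0.18 and 0.54. Above 0.6 there were 451 pairs, and below -0.6 there were 3. The closest pair, scaffold7939 and scaffold848, named after the values were seen, had a correlation of 0.84. The first principal component of the 200 held 23.9% of their variance and the second 9.89%. Replicate 1 of PT at 6 h and replicate 2 of C at 24 h lay at opposite ends of the first. These libraries also had the lowest and highest summed level of the 200. On the second, all 6 priming libraries of 6 h, from C and P alike, lay at one end, with scores from -13.0 to -5.93, and every other library lay at -5.10 or higher.

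The comparisons of the study were then read for the 200, each tested with edgeR's quasi-likelihood test over all transcripts that passed the filter on low counts, which all 200 passed. Calls needed an adjusted p (Benjamini-Hochberg, over all tested transcripts) of 0.05 or less. Since the same libraries chose the 200 for low spread, a low count of calls is built into the choice, and nothing is read from it. In the 20 comparisons, log2 fold changes of the 200 stayed between -0.36 and 0.40, and 0 transcripts passed 1.5-fold. Their median lay between -0.083 and 0.054. The median over all tested transcripts lay between -0.026 and 0.019. All 200 share the scaling of a library, so counts of the 200 higher or lower, given below, are not counts of separate observations.

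For simulated eggs alone, P against C, edgeR called 0 of the 200 at 1, 6 and 24 h, beside 0.11%, 0.0292% and 0.0229% of all transcripts tested. DESeq2 also called 0 of the 200 at each time, beside 1.2%, 0.393% and 0.185% of all. At an unadjusted p under 0.05 there were 0, 3 and 0 of the 200, beside 7.73%, 6.09% and 5.45% of all. At 6 h, 147 of the 200 were higher in P, and the median of their log2 fold changes was 0.05. At 1 and 24 h, 122 and 128 were lower, each with a median of -0.03. Leaving out 1 replicate number in every group gave 0 to 107, 0 to 206 and 0 to 183 calls over all transcripts at the 3 times, next to 139, 37 and 29 with all.

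For larval feeding on leaves without eggs, CT against CC, edgeR called 0 of the 200 at 1, 6 and 24 h, where it called 0.00961%, 1.25% and 9.17% of all transcripts, and 27.4% of the others in the level window at 24 h. Unadjusted p-values under 0.05 were found for 5, 5 and 7 of the 200, beside 8.28%, 11.8% and 22.9% of all. DESeq2 called 0, 0 and 3, beside 0.51%, 1.94% and 9.9% of all. Without 1 replicate number, calls over all transcripts were 0 to 729 at 1 h, 693 to 1096 at 6 h and 1807 to 14043 at 24 h, next to 15, 1947 and 14314 with all. They were fewest at 24 h without replicate 2, which left 1 library of CT, and most without replicate 4. Only CC at 6 h has a replicate 4, so that fit left out no library of the 24 h comparison. For the 200, the range of log2 fold changes was -0.27 to 0.21 at 1 h and -0.36 to 0.39 at 24 h. At 1 h, 154 of the 200 were lower in CT, with a median of -0.08.

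For feeding on leaves with simulated eggs, PT against PC, edgeR called 0 of the 200 at 1 and 6 h, beside 0.098% and 1.99% of all transcripts. Unadjusted p-values under 0.05 were found for 12 and 10 of the 200, beside 10.1% and 15.9% of all. DESeq2 called 0 and 1, beside 0.929% and 2.98% of all. Replicate numbers pair the samples at 1 and 6 h. With a block for the replicate number, edgeR called 0 of the 200 at both times. Its count over all transcripts at 1 h went from 153 to 511. At 24 h, 2 of the 200 rose and 0 fell, beside 10.8% of all transcripts called (6.08% as rises and 4.72% as falls) and 28.5% called among the others of the level window. DESeq2 called 4 of the 200 at 24 h, beside 12% of all. Without 1 replicate number, edgeR's calls over all transcripts were 0 to 453 at 1 h, next to 153 with all. At 6 h they were 588 to 2972, next to 3100, and at 24 h 5586 to 16690, next to 16856. At 6 and 24 h they were fewest without replicate 3 and most without replicate 4. Only CC at 6 h has a replicate 4, so that fit left out no PT or PC library.

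The larger of the rises at 24 h was that of scaffold12683. Its libraries of PC stood at 26.6, 26.4 and 25.7 CPM and those of PT at 30.3, 36.2 and 38.1 CPM. The groups did not overlap, and PC was the tighter of the pair. The log2 fold change was 0.40 (SE 0.13), and edgeR's adjusted p was 0.0362. In CT against CC at 24 h the same transcript stood at 34.8 ± 1.86 CPM (SD, n = 2) and 29.4 ± 2.57 CPM (SD, n = 3), a log2 fold change of 0.27 (SE 0.14) that was not called (adjusted p = 0.26, edgeR).

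C609253 stood at 41.96, 39.2 and 37.7 CPM in PC at 24 h and at 44.5, 51.5 and 54.9 CPM in PT at 24 h. Again the groups did not overlap. The log2 fold change was 0.34 (SE 0.11), and edgeR's adjusted p was 0.0446. PC at 24 h was the lowest of its 18 group means, at 39.6 ± 2.15 CPM (SD, n = 3). P at 6 h was the highest, at 51.8 ± 3.17 CPM (SD, n = 3). Both calls were lost without replicate 1, 2 or 3 of every group, with edgeR adjusted p from 0.0535 to 0.38 for scaffold12683 and from 0.0745 to 0.468 for C609253. The log2 fold changes in these fits were 0.33 to 0.50 and 0.24 to 0.46. With replicate 1 of CT at 24 h in the fit, neither transcript was called, at edgeR adjusted p of 0.494 and 0.592. C609253 was also lost without the filter on low counts and with the replicate block.

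Simulated eggs given 7 days earlier were compared without and with larvae. For PC against CC, edgeR called 0 of the 200 at 1, 6 and 24 h, as DESeq2 did beside 0.0596%, 0.0724% and 0.025% of all. At each time 0 reached an unadjusted p under 0.05, beside 3.39%, 4.01% and 4.13% of all. Of all transcripts edgeR called 0 at each time, or 0%. For PT against CT, edgeR and DESeq2 called 0 of the 200 at each time. An unadjusted p under 0.05 was found for 1, 0 and 0, beside 4.57%, 5.53% and 3.46% of all. Of all transcripts edgeR called 0% at each time and DESeq2 0.016%, 0.00256% and 0.00256%. With the replicate block, which pairs the samples in PC against CC at 1 h and in PT against CT at 6 h, edgeR called 10 and 5 of all transcripts, and 0 of the 200. Log2 fold changes of the 200 stayed between -0.21 and 0.22 for PC against CC and between -0.27 and 0.24 for PT against CT.

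**Figure D4:**
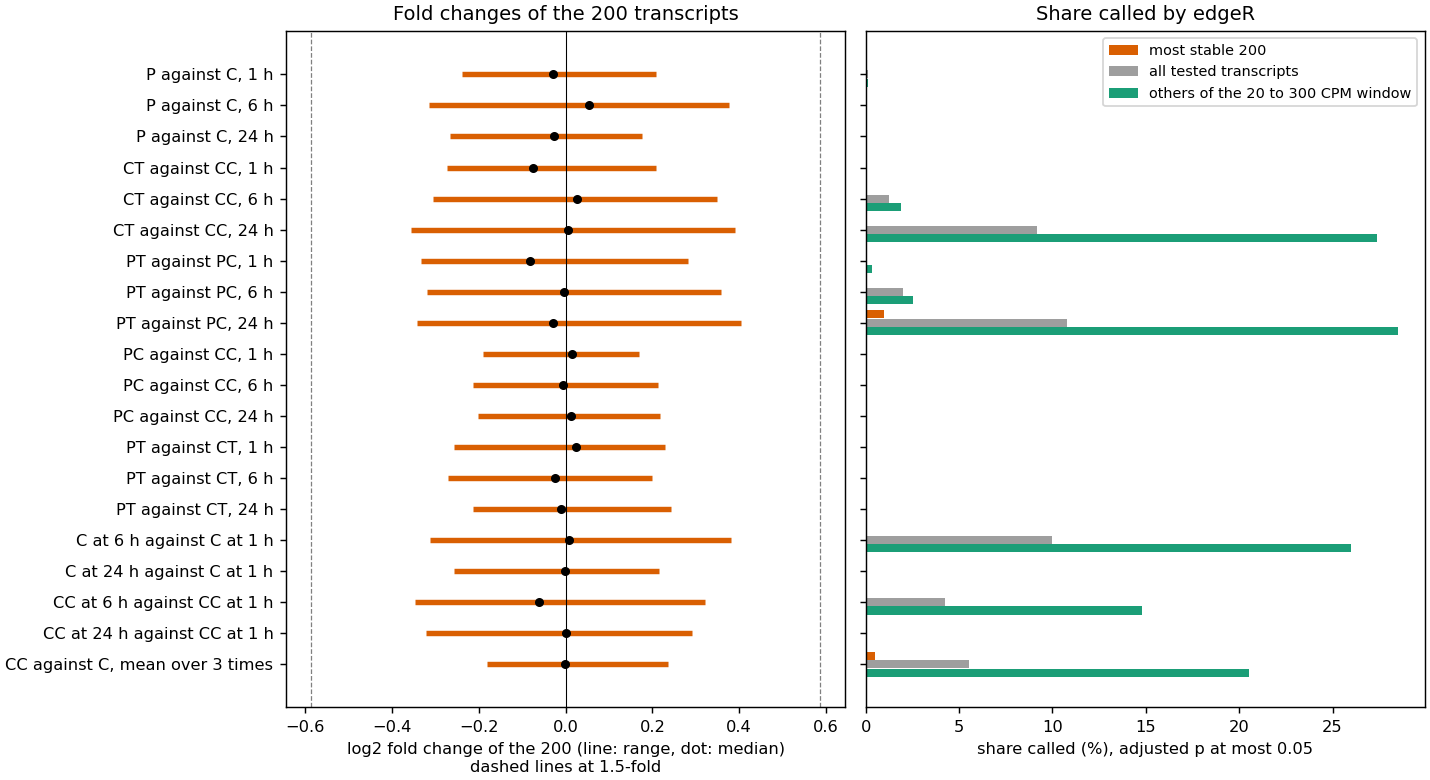
Left, the range (line) and median (dot) of the log2 fold changes of the 200 transcripts in 20 comparisons, with dashed lines at 1.5-fold. Right, the share called by edgeR at an adjusted p of at most 0.05 (percent) among the 200, all tested transcripts and the others of the level window; no line reaches 1.5-fold, and the 200 have 2 calls in PT against PC at 24 h and 1 in CC against C.

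Harvest time in untreated leaves was compared within each set. Between C at 6 h and C at 1 h, edgeR called 0 of the 200 beside 9.97% of all transcripts. Of the 200, 8 had an unadjusted p under 0.05, beside 24.1% of all, and DESeq2 called 1, beside 12% of all. Between CC at 6 h and CC at 1 h, edgeR called 0 beside 4.23%. Here 17 had an unadjusted p under 0.05, beside 16.9% of all, and DESeq2 called 1, beside 5.71% of all. In CC, 141 of the 200 were lower at 6 h. Without 1 replicate number, calls over all transcripts were 1241 to 8639 in C and 1779 to 3945 in CC, next to 12635 and 6599 with all, and fewest in both without replicate 2. At 24 h against 1 h, edgeR called 0 of the 200 and 0% of all transcripts in both C and CC. Unadjusted p-values under 0.05 were found for 1 and 4 of the 200 there, beside 7.23% and 8.75% of all. DESeq2 called 0 in both, beside 0.425% and 0.466% of all. Without 1 replicate number, edgeR's calls over all transcripts at 24 h against 1 h were 0 to 113 in C and 0 to 405 in CC, next to 0 with all.

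Untreated leaves of the 2 sets were compared as the mean of 3 times, CC against C. The sets differ in leaf age by 7 days and may differ in ways the labels do not give, which cannot be told apart from age. In this comparison 1 of the 200 rose and 0 fell, beside 5.54% of all transcripts called (2.76% as rises and 2.78% as falls) and 20.5% called among the others of the level window. DESeq2 called 11, of which 4 rose, beside 7.27% of all. In edgeR 23 of the 200 had an unadjusted p under 0.05, beside 18.6% of all. Without 1 replicate number, edgeR's calls over all transcripts were 859 (without replicate 2) to 10112, next to 9059 with all. The call was scaffold7542. Its 9 libraries of C ran from 31.9 to 39.9 CPM and its 9 of CC from 39.5 to 51.3 CPM, so that the groups overlapped only between 39.5 and 39.9 CPM. By time, C stood at 38.8 ± 1.75, 33.2 ± 1.21 and 37.1 ± 2.23 CPM at 1, 6 and 24 h, and CC at 42.6 ± 2.83, 41.5 ± 1.03 and 44.6 ± 5.85 CPM (SD, n = 3 each). The log2 fold change was 0.24 (SE 0.06), and edgeR's adjusted p was 0.0131. It was no longer called without replicate 1, 2 or 3 of every group (edgeR adjusted p from 0.0646 to 0.284, log2 fold change 0.20 to 0.28). With replicate 1 of CT at 24 h in the fit it was not called either (edgeR adjusted p 0.16).

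Replicate 1 of CT at 24 h was the 1 library the selection had not used, and in it the 200 were not stable. Scaled by TMM to the same reference library, they summed to 5520 CPM and took 0.161% of its reads. Of the 200, 170 lay below their range over the 53 libraries, 21 within it (10.5%) and 9 above it. Their median log2 ratio to the mean of the 53 libraries was -1.19, and 119 (59.5%) stood more than 2-fold below that mean. The other 5869 transcripts had a median of -1.34, with 32.03% within their wider ranges and 61.3% more than 2-fold below the mean. The 200 also spread out in this library. The interquartile range of their log2 ratios was 1.27, where it was 0.123 to 0.232 in the 53 libraries, and the corresponding values for the other transcripts of the window were 1.64 and 0.365 to 0.767.

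The farthest from its mean in that library was C594211, at 0.468 CPM from 2 reads, where its mean over 53 libraries was 32.1 CPM. The log2 ratio was -6.10. The other CT libraries of 24 h held it at 30.9 and 27.3 CPM, inside its range of 25.4 to 40.1 CPM. scaffold19664 was next, at 1.17 CPM from 5 reads, with a mean of 28.997 CPM and a log2 ratio of -4.63. It stood at 28.4 and 26.7 CPM in the other CT libraries of 24 h. Among the 6 transcripts of lowest CV the library held 5 at less than their lowest level elsewhere, scaffold719 at 69.5 CPM for one, and scaffold12806 above its highest, at 48.9 CPM. All 200 had reads in it. With 1 library and few reads, what part depth, the share of its 10 most abundant sequences or RNA quality had in these values was not tested.

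**Figure D5:**
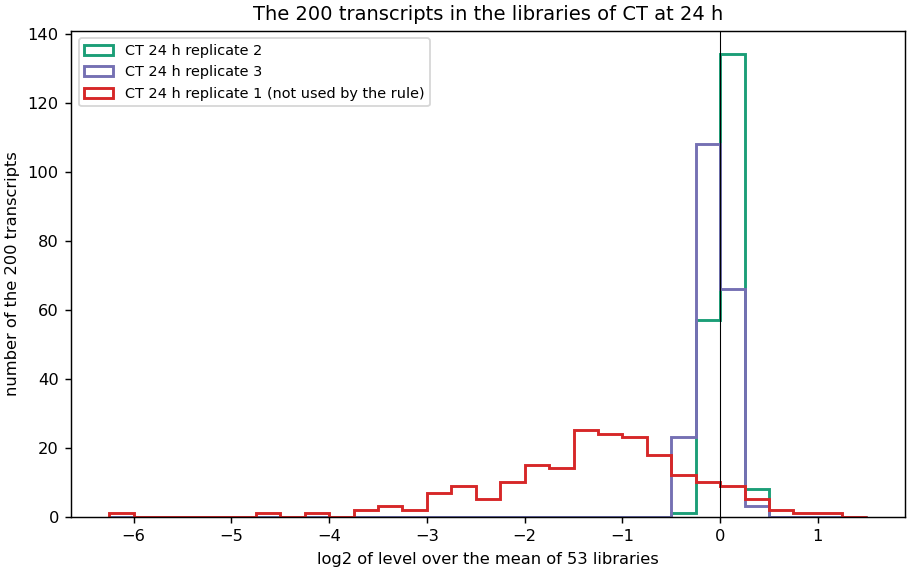
Number of the 200 transcripts (vertical axis) by log2 of the level over the mean of 53 libraries (horizontal axis) in the 3 libraries of CT at 24 h. Replicates 2 and 3, used in the selection, lie close to 0, and replicate 1, which was not used, has a median of -1.19 and reaches -6.10.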

How the data were processed

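Libraries were made from polyadenylated RNA of leaf tissue around the treated site, per the labels' protocols. The authors deposited 1 table of raw read counts for 237477 sequences (216675 contigs and 20802 scaffolds), and 0 of its columns were left unused. The submitters' processing notes name CASAVA and Trimmomatic 0.33. The assembly, aligner, counting program and use of strand were not given in the sources used here. Reads of related, overlapping or antisense sequences can thus be split or shared between sequences, and 1 gene may be several sequences.

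CPM were computed over TMM-scaled library sizes from all rows of the 53 libraries. The selected transcripts, lists and tests were chosen with earlier results of these data known. edgeR 4.0.16 (R 4.3.3; glmQLFit and glmQLFTest, filterByExpr with minimum count 10 and minimum total 15) was fitted once per set, with 1 mean per group, and over all 53 libraries for CC against C. SEs are the log2 fold change over the square root of F. DESeq2 1.42.0 was an alternative. The procedure was tested on simulated data. Named transcripts are the 6 of lowest CV, the 2 highest and 2 lowest in level, those at the boundary, the widest ratio of group means, up to 2 rises and 2 falls by smallest p in each comparison and the 2 farthest off in the library left out.

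Replicate numbers were checked as pairs by the correlation of same-numbered deviations from group means. Every one of 3 pairs exceeded 0.1 in PT against PC at 1 and 6 h, PC against CC at 1 h and PT against CT at 6 h. Counts of 2 libraries of a group differed by a chi-square per degree of freedom of at least 9.48 in each of 54 pairs, so no library was counted as a copy.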

Additional observations from a re-analysis of the deposited data

Results flagged for a closer look

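C609253 moved in opposite directions in PT against PC at different times, and the difference between times was not tested. At 1 h its 3 libraries of PT, at 40.9 to 41.9 CPM, all lay below the 3 of PC, at 43.02 to 43.6 CPM. At 6 h all 3 of PT, at 45.1 to 53.3 CPM, lay above all 3 of PC, at 40.1 to 44.5 CPM, and the ratio of means was 1.168. At 24 h all 3 of PT lay above all 3 of PC again. The log2 fold changes were -0.04, 0.24 and 0.34 (SE 0.11 each), with adjusted p-values of 0.955, 0.267 and 0.0446 in edgeR's quasi-likelihood test, so 1 of the 3 was called.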

How the results depend on the processing

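Which transcripts count as the 200 depended on the scaling and on the libraries used. Total counts without TMM shared 61 with them and gave them a median CV of 19.18%, all 54 libraries shared 102 with a median CV of 12.5%, and the priming set alone shared 93. The other choices shared 134 to 199, including DESeq2 size factors (168), upper quartiles (170) and the triggering set alone (136). Leaving out each of the 53 libraries shared 179 to 197, with a median CV of 9.503% to 9.867%.

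Of the 200, the DESeq2 test called 3 in CT against CC at 24 h, 1 in PT against PC at 6 h, 4 in PT against PC at 24 h, 1 in C at 6 h against 1 h, 1 in CC at 6 h against 1 h and 11 in CC against C. In CT against CC at 24 h, 1 was called with DESeq2 size factors in edgeR, with scaling to the 200, with CT 24 h replicate 1 included and with all 53 libraries in 1 fit. That single fit also called 1 in PT against PC at 6 h and 2 in C at 6 h against 1 h. In PT against PC at 24 h, no filter gave 1, CT 24 h replicate 1 included gave 0, and the replicate block gave 1. There the correlations of same-numbered libraries were 0.0511 to 0.203, so not every pair exceeded 0.1. Every library still correlated best with its own number. In CC against C, scaling to the 200 gave 4 and CT 24 h replicate 1 included gave 0. Leaving out replicate 1, 2 or 3 gave 0 in PT against PC at 24 h and 0 in CC against C. Leaving out replicate 4, which only CC at 6 h has, gave 2 and 1. The cause was not tested. The block changed no other count of the 200. It was set within a harvest time and was not run for comparisons of times.

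Over all transcripts, scaling to the 200 moved the share of rises among calls from 58.8% to 69.3% in PT against PC at 1 h and from 35.4% to 45.4% in CC at 6 h against 1 h. It took CT against CC at 1 h from 15 to 148 calls and P against C at 1 h from 139 to 257. With DESeq2, counts of all calls either rose from 0 or moved by over 1.5 times in 14 of 20 comparisons. Each of the 200 had at least 413 reads in each of 53 libraries, and counting error made up at most 16.01% of the variance of any of them.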
